A study of Mus musculus with 16 samples.

Results

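The 8 genes described here encode 7 small leucine-rich proteoglycans of the extracellular matrix, decorin (Dcn), lumican (Lum), biglycan (Bgn), fibromodulin (Fmod), osteoglycin (Ogn), prolargin (Prelp) and asporin (Aspn), and dermatopontin (Dpt), a small matrix protein known to bind decorin. They were taken by gene symbol from a table of 23235 rows, where each had 1 row. All 8 passed the filter on low values, which kept the 14171 rows that reached 1 FPKM in 2 or more libraries. FPKM is a count of sequenced fragments scaled to the length of the transcript and to the size of the library.

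RNA was measured in 16 libraries of mouse skin at embryonic day 14.5, separated by fluorescence-activated cell sorting into 8 fractions with 2 libraries each. The labels name the fractions Fb, DC, DCSch, Sch, Mc, Neg, Epi and Pc, without spelling them out. General knowledge of this field was used to read them as fibroblasts, dermal condensate, dermal condensate with Schwann cells, Schwann cells, melanocytes, the negative fraction, epidermis and placode. The sources used here do not give the strain, genotype, reporter alleles, sorting markers, litters or pooling of embryos. Nothing says that the libraries of a fraction came from separate embryos, and the spread on which the p-values rest may be technical.

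Small leucine-rich proteoglycans are secreted proteins with a curved core of leucine-rich repeats, and many carry chondroitin, dermatan or keratan sulfate chains. They bind fibril-forming collagens and set how thick and how evenly spaced the fibrils become, and several also bind growth factors of the TGF-beta family. They are grouped into classes by sequence: Dcn, Bgn and Aspn belong to class I, Lum, Fmod and Prelp to class II and Ogn to class III. Decorin and lumican are known as major proteoglycans of the dermis, and mice without either have fragile skin.

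The summed FPKM of a library lay between 439201 and 606437, the depth is unknown, and replicates are libraries that the labels number 1 and 2. Marker lists of the cell types stood highest in the fraction read as that type. The 10 fibroblast markers summed to 5782 and 7742 FPKM in the Fb libraries, to 1887 to 2410 in DC and DCSch, to 720 to 733 in Neg, to 241 to 602 in Sch and Mc, and to 60.8 to 94.6 in Epi and Pc. The 8 keratinocyte markers summed to 3816 to 4965 FPKM in Epi and Pc, but also to 463 and 664 in Mc and to 45.3 and 248 in Sch. Cdh1 alone held 224 and 236 FPKM in Mc, near its 252 and 241 in Epi. The other markers of this list were far lower in Mc than in Epi, such as Krt5 with 142 and 76.1 FPKM against 1355 and 1104. The 8 Schwann cell markers summed to 2106 and 2219 FPKM in Sch and to 304 and 490 in DC. Most of the DC sums was Ngfr, with 444 FPKM in replicate 1 and 208 in replicate 2, against 218 and 149 in Sch. Of the 8 markers, 7 were called lower in DC than in Sch. All 8 were called higher in DC than in Fb, where 6.13% of all rows were (median log2 difference Fb minus DC -1.65). These sums moved with some of the levels below, and their part in them was not tested.

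Across the 8 fractions, 6 of the 8 genes had their highest mean in Fb: Dcn, Lum, Bgn, Ogn, Aspn and Dpt. Prelp was highest in DC and Fmod in Pc. The 8 genes together made up 0.500% and 0.732% of the summed FPKM of the Fb libraries, 0.106% to 0.166% in DC and DCSch, 0.0445% and 0.0717% in Neg, 0.0381% and 0.0521% in Pc, and 0.0263% to 0.0356% in Sch, Mc and Epi. Both Fb libraries thus lay above all others. In such bulk libraries, fewer cells of a type and less RNA per cell cannot be told apart.

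**Figure D1:**
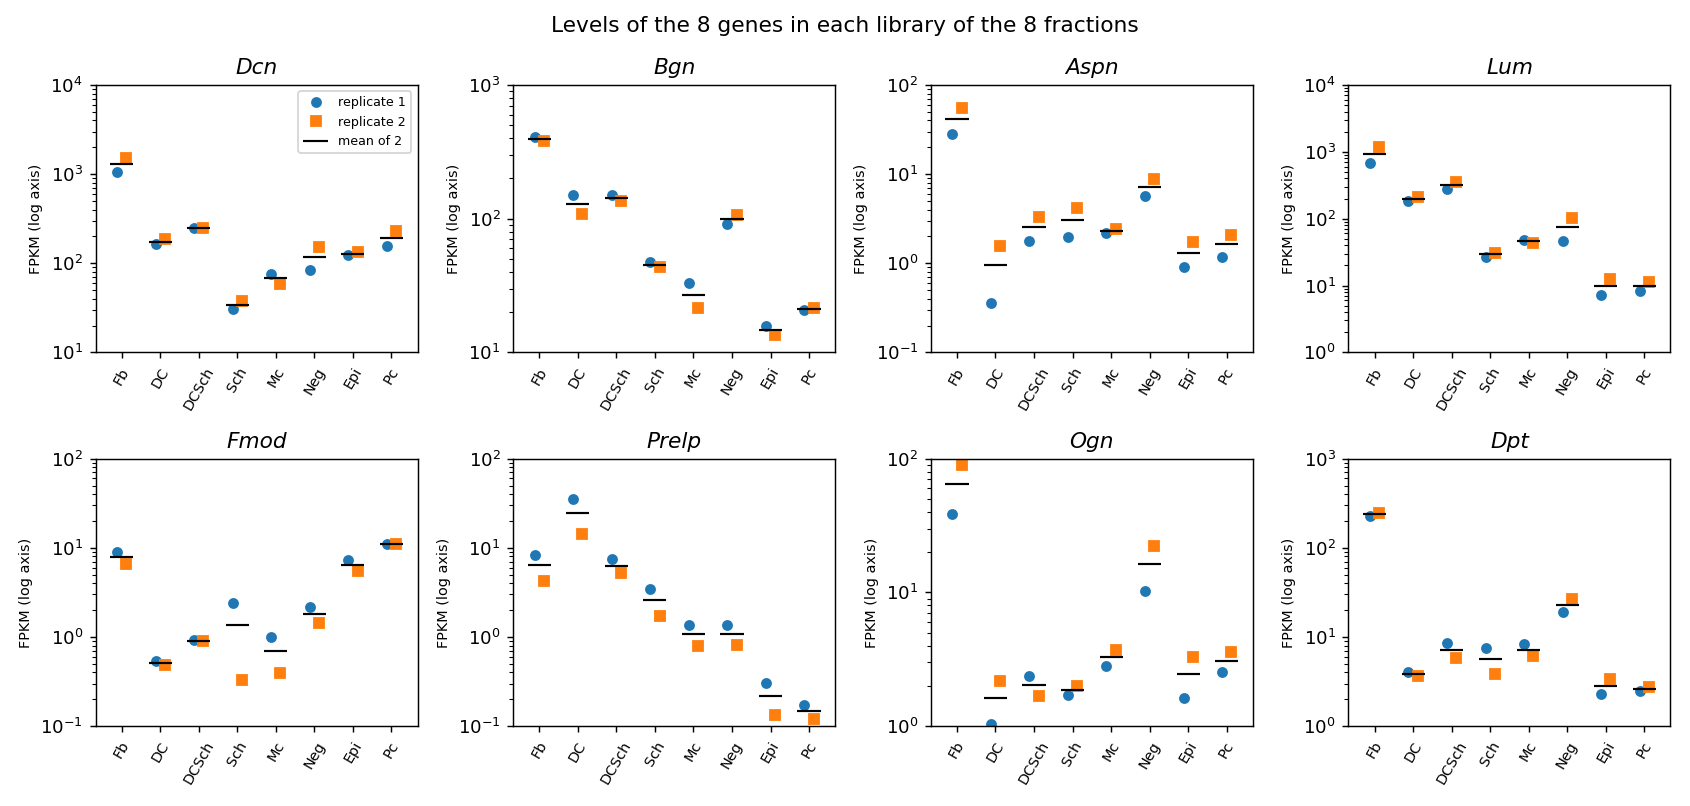
FPKM (log axis) of each gene in each fraction, with 1 point per library, blue for replicate 1 and orange for replicate 2, and a line at the mean of the 2. Dcn, Bgn, Aspn, Lum, Ogn and Dpt are highest in Fb, Prelp is highest in DC (14.2 and 35.5 FPKM) and Fmod in Pc (10.9 and 11.1 FPKM).

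On chromosome 1 Prelp and Fmod are neighbouring coding genes, 115839 bases apart on opposite strands. By mean, DC was highest in Prelp and lowest in Fmod, and Pc lowest in Prelp and highest in Fmod. Fb came second in both genes and was called higher than Neg and Mc in both. The calls over Neg were lost without Fb replicate 1 and without Neg replicate 2. Not all of these ranks were separated. In Prelp, Fb (6.34 FPKM) was not called against DCSch (6.31), nor Epi against Pc. In Fmod, Pc was not called against Fb, nor Mc against DC. The bases before the start of these 2 genes, of Aspn and Ogn, and of Dpt are shown because they belong to a pair of neighbours that differed, a pair that moved together, and the gene with the largest difference between Fb and DC. Each is the 250 bases before a start of transcription in RefSeq (GRCm38.p6), 5′ to 3′ on the strand of the gene. The RefSeq span of Prelp reaches 133930102, so its window lies inside that span and not before the outermost start. Of the 8 genes, 6 were matched, without Dcn and Lum. Capitals mark matches, on either strand, to 6 motifs: TATAAA, the TATA box, CCAAT, the CCAAT box, GGGCGG, the GC box, TGANTCA, the AP-1 site, CTTTGNT, a Lef/Tcf site, and CAGATG, a Twist-type E-box. In Ogn the TATA box letters and their reverse complement overlap.
Prelp, chr1:133921402-133921651, minus strand: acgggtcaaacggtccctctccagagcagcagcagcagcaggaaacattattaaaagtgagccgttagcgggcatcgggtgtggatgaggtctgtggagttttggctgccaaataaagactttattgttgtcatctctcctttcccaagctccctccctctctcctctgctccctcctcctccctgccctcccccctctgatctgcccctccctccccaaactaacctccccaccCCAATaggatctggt
Fmod, chr1:134037004-134037253, plus strand: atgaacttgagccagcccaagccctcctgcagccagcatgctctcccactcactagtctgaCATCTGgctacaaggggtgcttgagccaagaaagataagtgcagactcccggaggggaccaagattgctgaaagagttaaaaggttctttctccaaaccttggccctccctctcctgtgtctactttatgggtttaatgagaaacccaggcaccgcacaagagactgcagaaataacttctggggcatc
Aspn, chr13:49544193-49544442, plus strand: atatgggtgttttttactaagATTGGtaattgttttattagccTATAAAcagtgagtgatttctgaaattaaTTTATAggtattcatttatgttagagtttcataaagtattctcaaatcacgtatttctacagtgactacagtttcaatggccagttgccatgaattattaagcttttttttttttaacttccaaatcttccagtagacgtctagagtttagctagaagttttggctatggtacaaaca
Ogn, chr13:49607765-49608014, plus strand: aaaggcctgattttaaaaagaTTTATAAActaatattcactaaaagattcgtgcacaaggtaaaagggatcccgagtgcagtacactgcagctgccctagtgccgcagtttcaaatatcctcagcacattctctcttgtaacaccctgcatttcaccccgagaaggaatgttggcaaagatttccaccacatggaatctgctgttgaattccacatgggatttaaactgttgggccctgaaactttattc
Dpt, chr1:164796413-164796662, plus strand: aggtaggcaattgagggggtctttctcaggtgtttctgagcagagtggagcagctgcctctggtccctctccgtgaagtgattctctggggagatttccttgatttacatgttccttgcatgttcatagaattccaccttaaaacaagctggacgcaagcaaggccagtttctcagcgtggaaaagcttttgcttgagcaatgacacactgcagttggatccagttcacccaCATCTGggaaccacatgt

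Matches differed between the 5 windows. The TATA box letters occurred in Ogn and Aspn, 178 to 229 bases before the start, and in 12.4% of 32851 windows of all genes. Aspn and Prelp held CCAAT, as did 33.8% of all windows. Fmod and Dpt held CAGATG on the reverse strand, and 14.4% of all windows held it on either strand. The Dpt match lies 18 bases before the RefSeq start but inside the gene in GENCODE M21, where Dpt starts at 164796644. No window shown held the AP-1 or Lef/Tcf letters, found in 6.75% and 16.0% of all windows. Bgn, not printed, held 3 GC box matches within 34 bases of its start. The GC content was 30.0% for Aspn, 42.0% for Ogn, 48.8% for Dpt, 51.2% for Fmod and 55.6% for Prelp, with a median of 52.4% over all windows. A match is a run of letters and not a bound site.

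Dcn, the class I proteoglycan with a single chondroitin or dermatan sulfate chain, lies on chromosome 10 (97479500 to 97518162, mm10). It measured 1066 and 1498 FPKM in the Fb libraries, 163 and 185 in DC, and 245 and 251 in DCSch. Of the epithelial fractions, Pc held 156 and 230.2 FPKM and Epi 124 and 133. Neg held 83.0 and 151 FPKM, Mc 76.4 and 59.2, and Sch 30.8 and 38.0. By mean, DC lay between Pc and Epi. Pc and DC overlapped (log2 difference DC minus Pc -0.12, SE 0.29, limma adjusted p = 0.793), while Fb stood apart from DCSch, its neighbour in the order, by 2.34 (SE 0.29, limma adjusted p = 0.000197). Below Fb, no neighbouring fractions in the order of Dcn passed both limits of the test, an adjusted p under 0.05 and a log2 difference of at least 1.

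Bgn, the class I proteoglycan known to carry a pair of chains, lies on chromosome X (73483635 to 73495936). It measured 408 and 384 FPKM in Fb, 151 and 135 in DCSch, 151 and 108 in DC, and 91.4 and 107 in Neg. Sch held 47.1 and 43.2 FPKM, Mc 32.8 and 21.3, Pc 20.7 and 21.4, and Epi 15.7 and 13.5. Bgn fell in steps: Fb stood above DCSch by 1.46 log2 units (SE 0.22, limma adjusted p = 0.000903), DCSch, DC and Neg were neighbours without a call, and Neg stood above Sch by 1.11 (SE 0.22, limma adjusted p = 0.00301).

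Aspn, the class I member named for its run of aspartate residues and known to restrain TGF-beta signalling, lies on chromosome 13 (49544443 to 49567565). It measured 28.1 and 55.7 FPKM in Fb and 5.72 and 8.76 in Neg. In the other 12 libraries it stayed between 0.358 FPKM (DC replicate 1) and 4.12 (Sch replicate 2). Fb stood above Neg by 2.33 log2 units (SE 0.43, limma adjusted p = 0.00189), and no further neighbours were called. With the replicate number in the model, Neg was also above Sch (1.06 log2 units, limma adjusted p = 0.111, and 0.00151 with the replicate number).

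Lum, a class II proteoglycan with keratan sulfate chains, lies 46984 bases from Dcn on chromosome 10 (97565501 to 97572703). It measured 688 and 1189 FPKM in Fb, 280.2 and 350.2 in DCSch, and 186 and 211 in DC. Neg held 46.9 and 102 FPKM, Mc 48.7 and 43.5, and Sch 27.1 and 31.2. Epi (7.30 and 12.3 FPKM) and Pc (8.24 and 11.4) were lowest and overlapped. The order had 3 called steps, Fb above DCSch by 1.53 log2 units (SE 0.37, limma adjusted p = 0.0168), DC above Neg by 1.51 (SE 0.37, limma adjusted p = 0.00730) and Sch above Epi by 1.51 (SE 0.37, limma adjusted p = 0.00737). Of the 28 pairs of fractions, 24 were called for Lum, against 10 (Aspn) to 21 (Bgn) for the other genes.

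Fmod, a class II proteoglycan that regulates collagen crosslinking, lies on chromosome 1 (134037515 to 134048277). Its Pc libraries measured 11.1 and 10.9 FPKM, its Fb libraries 8.98 and 6.66, and its Epi libraries 7.22 and 5.47. The other fractions were low, with 2.19 and 1.43 FPKM in Neg, 2.43 and 0.330 in Sch, 0.923 and 0.901 in DCSch, 0.988 and 0.396 in Mc, and 0.541 and 0.480 in DC. Pc and Fb libraries did not overlap, but the difference was not called (log2 difference Fb minus Pc -0.46, SE 0.37, limma adjusted p = 0.411). Epi stood above Neg by 1.39 (SE 0.37, limma adjusted p = 0.0138), the 1 called step in the order. Pc was 21.6-fold above DC in mean FPKM (log2 difference DC minus Pc -2.99, SE 0.37, limma adjusted p = 5.21e-05).

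Prelp, a class II protein with few or no sugar chains, known for binding heparan sulfate through a basic end, lies on chromosome 1 (133910304 to 133921401). It measured 35.5 and 14.2 FPKM in DC, 8.40 and 4.28 in Fb, and 7.42 and 5.20 in DCSch. Sch held 3.41 and 1.72 FPKM, Neg 1.36 and 0.813, Mc 1.37 and 0.802, Epi 0.308 and 0.132, and Pc 0.173 and 0.120. Only the step from DC to Fb was called in this order (log2 difference 1.74, SE 0.42, limma adjusted p = 0.0102), and it was lost without DC replicate 1 (1.11, limma adjusted p = 0.0986), without Fb replicate 2 (1.32, limma adjusted p = 0.0972) and with only the 4 libraries compared (limma adjusted p = 0.110). With the replicate number in the model DCSch was also called above Sch (1.06 log2 units, limma adjusted p = 0.148, and 0.0103 with the replicate number). An antisense gene model, Gm15851, covers 350 of the 3615 exonic bases of Prelp in GENCODE M21, and whether the counting used strand is not given in the sources used here.

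Ogn, the class III proteoglycan also called mimecan, lies on chromosome 13 (49608046 to 49624501). It measured 38.3 and 90.2 FPKM in Fb and 10.3 and 22.1 in Neg. The other 12 libraries held 1.03 FPKM (DC replicate 1) to 3.72 (Mc replicate 2), and these 6 fractions were not separated by any call between neighbours. Fb stood above Neg by 1.89 log2 units (SE 0.44, limma adjusted p = 0.00866) and Neg above Mc by 1.93 (SE 0.44, limma adjusted p = 0.00755).

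Dpt, which is no proteoglycan but binds decorin and promotes collagen fibril assembly, lies on chromosome 1 (164796732 to 164824266). It measured 229.6 and 245 FPKM in Fb and 18.9 and 26.5 in Neg. The other 12 libraries held 2.30 FPKM (Epi replicate 1) to 8.58 (DCSch replicate 1). Fb stood above Neg by 3.35 log2 units (SE 0.30, limma adjusted p = 7.63e-06) and Neg above DCSch by 1.53 (SE 0.30, limma adjusted p = 0.00241). Over all 8 genes, 13 of the 56 steps between neighbours were called, and 133 of the 224 combinations of a gene and a pair of fractions, against 18% of such combinations over all rows tested.

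Between Fb and DC, the dermal fibroblasts and the condensate that forms beneath the placode, all 8 genes were called, 7 higher in Fb and Prelp lower. Over all rows 15.3% were called in this comparison, 9.2% higher in Fb and 6.13% lower, and the median log2 difference was 2.69 for the 8 genes against 0.00 for all rows. The 7 differed widely in size. Dpt was 61.4-fold higher in Fb in mean FPKM (log2 difference 5.61, SE 0.30, limma adjusted p = 3.72e-07), Aspn 43.8-fold (4.45, SE 0.43, limma adjusted p = 1.78e-05) and Ogn 39.9-fold (4.56, SE 0.44, limma adjusted p = 1.81e-05). The ratios of Aspn and Ogn rest on DC levels of 0.358 to 2.18 FPKM: that of Aspn was 27.0 without DC replicate 1 and 117 without DC replicate 2, and that of Ogn 62.1 without DC replicate 2 and 23.8 without Fb replicate 2. Fmod was 15.3-fold higher, on low values that the pseudocount of 1 compresses (2.53, SE 0.37, limma adjusted p = 0.000390). Dcn was 7.37-fold higher (2.86, SE 0.29, limma adjusted p = 2.62e-05), Lum 4.72-fold (2.18, SE 0.37, limma adjusted p = 0.00102) and Bgn 3.06-fold (1.63, SE 0.22, limma adjusted p = 0.000238). Prelp was 3.92-fold lower in Fb. Of the 10 fibroblast markers 7 were called higher in Fb and none lower. In DC they ran from 2.27% (Lox) and 2.34% (Thbs2) of their Fb mean over 7.39% (Vcam1), 9.77% (Dpp4), 11.7% (Col1a1), 16.3% (Col1a2), 39.3% (Col3a1) and 69.1% (Pdgfra) to 118% (Twist2) and 194% (Prrx1). Dpt (1.63%), Aspn (2.28%) and Ogn (2.51%) lay near the low end of that range.

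Between DCSch and DC only Prelp of the 8 genes was called, 3.93-fold higher in DC (log2 difference DCSch minus DC -1.70, SE 0.42, limma adjusted p = 0.0257), with 6.2% of all rows called. This call was lost without DC replicate 1 (-1.07, limma adjusted p = 0.233), without either DCSch library (limma adjusted p = 0.0733 and 0.169), with only the 4 libraries compared (limma adjusted p = 0.133) and with a pseudocount of 0.1 (limma adjusted p = 0.0807). Both DCSch libraries lay above both DC libraries in Lum, Dcn, Fmod, Aspn and Dpt without a call. How often rows as a whole separate in this way was not counted. The ratio of means was 2.66 for Aspn (log2 difference 0.89, SE 0.43, limma adjusted p = 0.340), 1.87 for Dpt (0.74, SE 0.30, limma adjusted p = 0.213), 1.79 for Fmod (0.34), 1.59 for Lum (0.66) and 1.43 for Dcn (0.51).

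Against Sch, DC was higher in 4 of the 8 genes, Dcn, Lum, Bgn and Prelp, and lower in none, where 19.2% of all rows were called. Prelp was 9.68-fold higher in DC (log2 difference 2.76, SE 0.42, limma adjusted p = 0.000324) and Lum 6.82-fold (2.73, SE 0.37, limma adjusted p = 0.000133). Aspn lay below Sch in both DC libraries (log2 difference -1.06, SE 0.43, limma adjusted p = 0.101), a difference that was called with the replicate number in the model (limma adjusted p = 0.00122). For Fmod, Ogn and Dpt the DC and Sch libraries overlapped. Without Sch replicate 2, which had the lowest Fmod of the 16 libraries, Fmod was called lower in DC (-1.18, limma adjusted p = 0.0199), and without Sch replicate 1 the difference turned to 0.18 (limma adjusted p = 0.791). Sch replicate 1 held 248 FPKM of keratinocyte markers, with Krt5 at 73.5, and Sch replicate 2 held 45.3, with Krt5 at 10.7. The part of these cells in the Fmod of Sch was not tested.

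Fb was higher than Neg in all 8 genes, where 7.71% of all rows were called higher in Fb and 7.77% lower. With the libraries rescaled to the same total, the median of all rows moved by 0.20 and the share of called rows that were higher in Fb from 49.8% to 62.3%. The Neg libraries held markers of several cell types: 5 erythroid markers summed to 32160 and 35102 FPKM, 7 skeletal muscle markers to 2438 and 2727, 4 mast cell markers to 970.0 and 1174, 7 endothelial markers to 296 and 398, and 6 macrophage and leukocyte markers to 181 and 212. The 8 mural cell markers summed to 138 and 146 FPKM in Neg and to 140.5 and 143 in Fb. The 10 fibroblast markers in Neg had a median of 10.4% of their Fb mean, with a range from 6.87% (Twist2) to 77.6% (Dpp4). Lum (7.91%), Dcn (9.13%) and Dpt (9.57%) lay near that median, and Prelp (17.1%), Aspn (17.3%), Fmod (23.2%), Bgn (25.02%) and Ogn (25.3%) above it. The part of the other cell types in these levels was not tested. The log2 differences ran from 1.65 for Fmod (SE 0.37, limma adjusted p = 0.00687) to 3.69 for Lum (SE 0.37, limma adjusted p = 1.81e-05). Ogn lost the call without Fb replicate 2 (1.28, limma adjusted p = 0.0909), without Neg replicate 1 (1.37, limma adjusted p = 0.105) and with only the 4 libraries compared (limma adjusted p = 0.0825). Fmod and Prelp lost it without Fb replicate 1 (limma adjusted p = 0.0549 and 0.0853), without Neg replicate 2 (limma adjusted p = 0.0630 and 0.0722) and with a pseudocount of 5 (0.91 and 0.87).

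Among the neural crest fractions all 8 genes were below Fb. Against Sch, 7 were called higher in Fb, where 8.68% of all rows were, and Prelp was not (log2 difference 1.02, SE 0.42, limma adjusted p = 0.120) unless the replicate number was in the model (limma adjusted p = 0.00848). Against Mc, all 8 were called higher in Fb, where 11.8% of all rows were. None of the 8 was called between Mc and Sch by limma, where 11.8% of all rows were called, and 2 had an unadjusted p under 0.05. Dcn (log2 difference Mc minus Sch 0.96, limma adjusted p = 0.0463) and Bgn (-0.75, limma adjusted p = 0.0431) had an adjusted p under 0.05 with a difference under 1, and Bgn was called without Mc replicate 1 (-1.04, limma adjusted p = 0.0164). The 10 fibroblast markers had a median of 4.94% of their Fb mean in Mc and 7.14% in Sch, beside medians of 5.39% and 5.18% for the 8 genes, and the part of these cells in the levels was not tested.

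In the epithelial fractions the 8 genes did not keep the proportions they had in Fb. Of the 10 fibroblast markers, 8 were at 0.955% to 1.30% of their Fb mean in Pc and Epi, Thbs2 at 4.33% and 3.92%, and Dpp4 at 48.4% and 266%. Lum (1.04% in Pc and 1.05% in Epi) and Dpt (1.11% and 1.19%) lay in that range of the 8 markers. Dcn was at 15.1% and 10.01%, Bgn at 5.32% and 3.69%, and Fmod at 141% and 81.1%. Ogn (4.75% and 3.81%), Aspn (3.89% and 3.14%) and Prelp (2.31% and 3.47%) also lay above that range, on low means of 0.147 to 3.05 FPKM. The ratio of Dcn to Lum, both in FPKM, was 18.9 and 20.3 in Pc and 10.7 and 17.0 in Epi. In the other 12 libraries this ratio lay between 0.717 (DCSch replicate 2) and 1.77 (Neg replicate 1), so the epithelial libraries stood apart from all others. The ratio was noticed in the data and is given without a test.

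**Figure D2:**
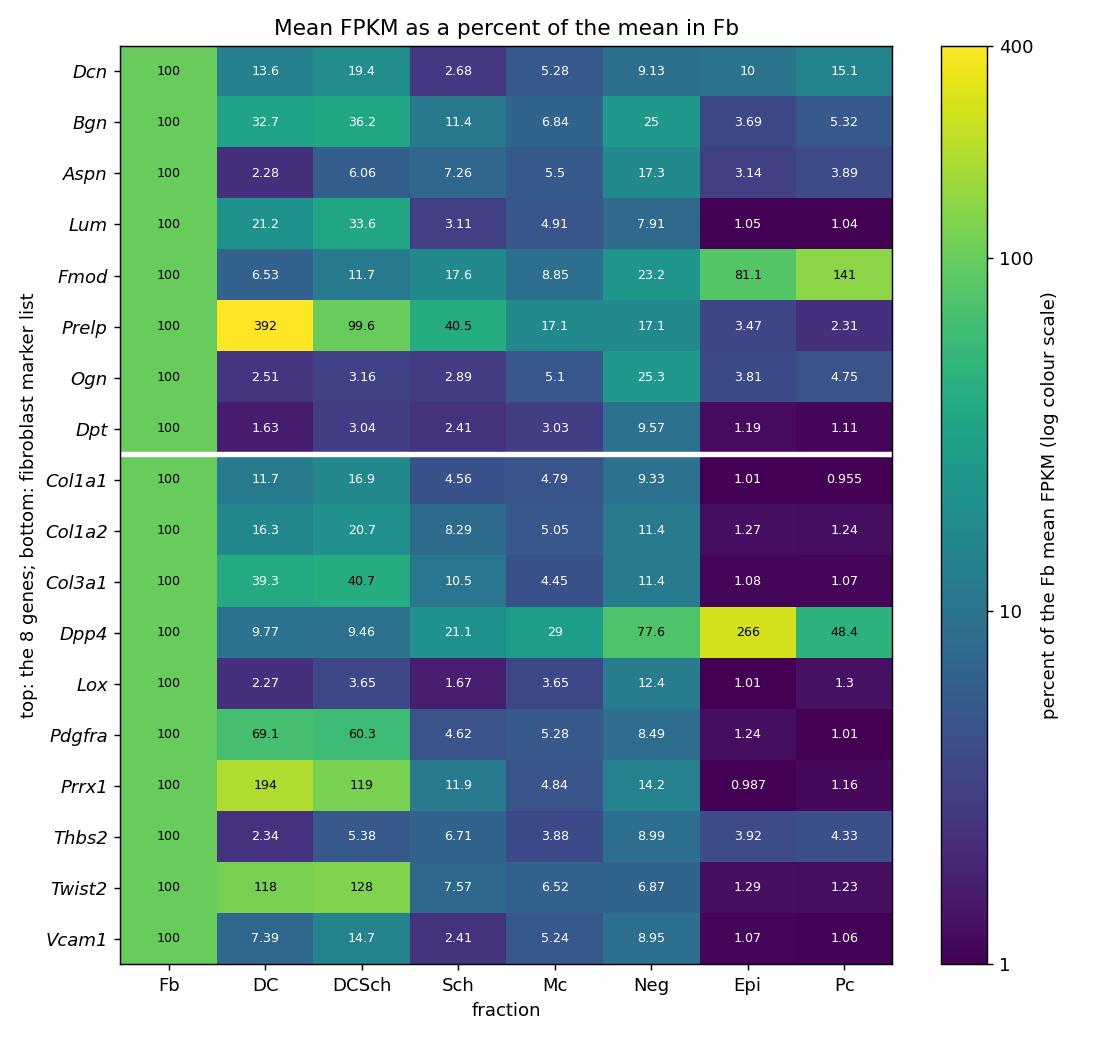
Mean FPKM of each gene in each fraction as a percent of its mean in Fb, on a log colour scale, with the 8 genes above the white line and the 10 fibroblast markers below it. In the Epi and Pc columns Lum and Dpt are near 1%, as are 8 of the 10 markers, while Dcn is at 10.01% and 15.1% and Fmod at 81.1% and 141%.

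Dcn alone made up 76.9% to 81.5% of the summed FPKM of the 8 genes in the Pc and Epi libraries, and 25.2% to 44.0% in the other 12. Lum held 34.4% to 46.5% of that sum in DC and DCSch, 27.8% and 34.2% in Fb, and 4.02% to 7.16% in Pc and Epi. Bgn had its largest shares in Sch (34.7% and 38.6%) and Neg (25.5% and 35.2%). Prelp made up 2.69% and 6.55% of the sum in DC and 0.123% and 0.339% in Fb.

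**Figure D3:**
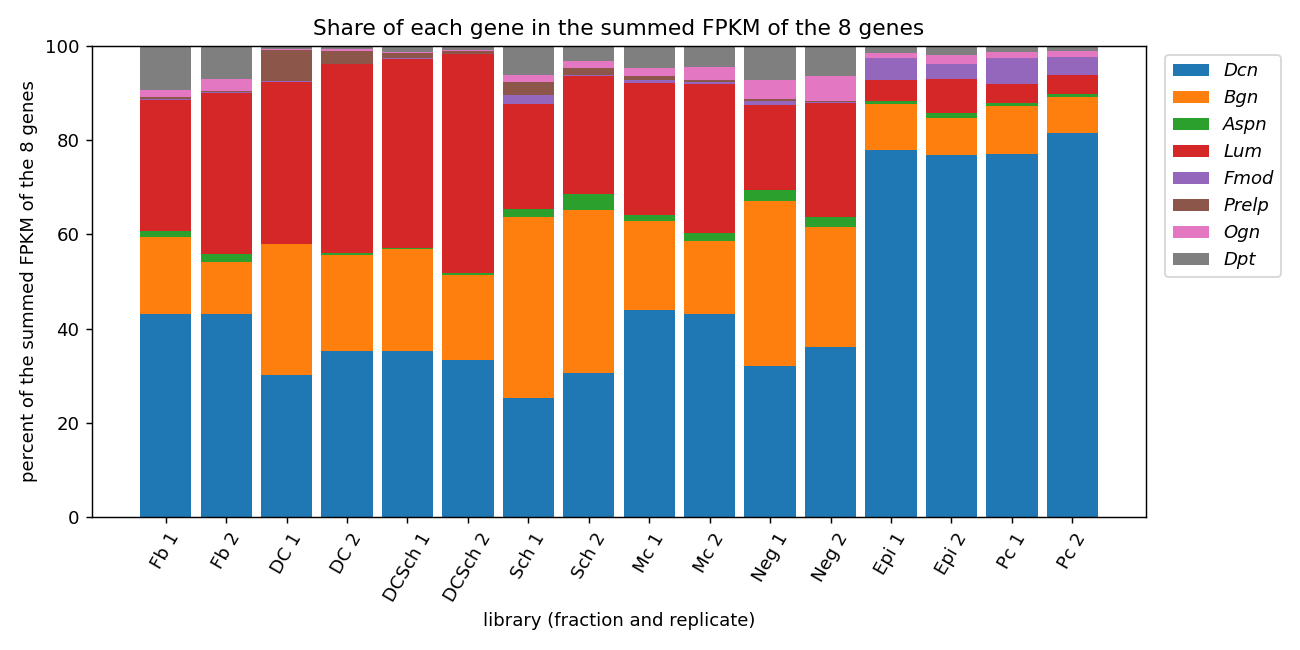
Percent of the summed FPKM of the 8 genes taken by each gene, with 1 bar for each of the 16 libraries. Dcn takes at least 76.9% of each Pc and Epi bar and at most 44.0% of the others, and Lum is largest in DC and DCSch.

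Against Epi, Fb was higher in 7 of the 8 genes, where 14% of all rows were (57.3% of the called rows, and 68.3% after rescaling the libraries to the same total), and Fmod was not called (log2 difference 0.26, SE 0.37, limma adjusted p = 0.654). Against Pc the same 7 were higher in Fb, where 13.7% of all rows were. The largest differences between Fb and Epi were those of Lum (95.5-fold, log2 difference 6.43, SE 0.37, limma adjusted p = 2.05e-07) and Dpt (83.9-fold, 5.97, SE 0.30, limma adjusted p = 1.05e-07). Dcn differed 9.99-fold (3.29, SE 0.29, limma adjusted p = 3.76e-06).

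Between Pc and Epi none of the 8 genes was called by limma, where 1.52% of all rows were called, and 1 (Bgn) had an unadjusted p under 0.05. With the replicate number in the model again none of the 8 was called, while the rows called rose from 216 to 368. Dcn (log2 difference 0.56, SE 0.29, limma adjusted p = 0.689), Bgn (0.50, SE 0.22, limma adjusted p = 0.543) and Fmod (0.72, SE 0.37, limma adjusted p = 0.683) were higher in both Pc libraries than in both Epi libraries. The other 5 overlapped, and the share of all rows whose Pc and Epi libraries do not overlap was not counted.

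Whether the follicle against non-follicle difference was the same in the dermal and the epithelial pair was tested as (DC minus Fb) minus (Pc minus Epi). It was called below 0 for 7 of the 8 genes, where 8.19% of all rows were. The values ran from -2.13 for Bgn (SE 0.32, limma adjusted p = 0.000780) to -5.55 for Dpt (SE 0.42, limma adjusted p = 9.98e-06). Aspn, Ogn and Dpt had Epi means of only 1.32, 2.44 and 2.83 FPKM. On log2(FPKM + 1), Pc could not lie as far below Epi as DC lay below Fb. For these genes the test could not have found equal differences. The value of Lum, -2.21 (SE 0.52, limma adjusted p = 0.0128), lost the call without Epi replicate 1 (limma adjusted p = 0.0630), without Fb replicate 2 (0.0545) and without Pc replicate 2 (0.0586). Prelp was above 0 (1.83, SE 0.59, limma adjusted p = 0.0598) and was called with the replicate number in the model (limma adjusted p = 0.00249).

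**Figure D4:**
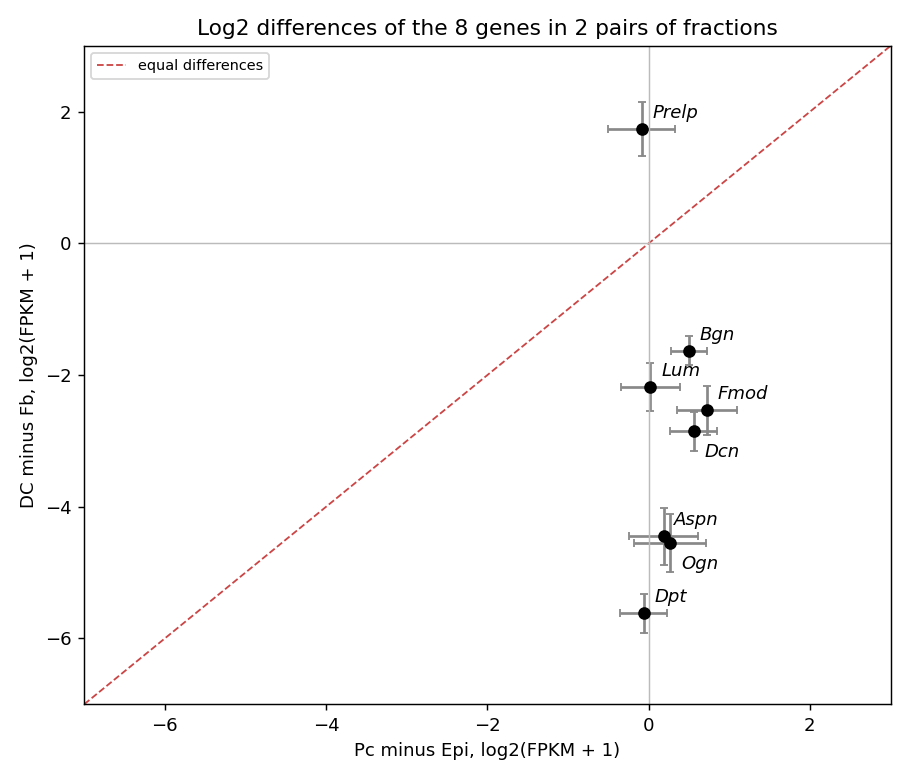
Log2 difference DC minus Fb (vertical axis) against Pc minus Epi (horizontal axis) for each gene, both on log2(FPKM + 1), with bars of 1 SE, and a dashed line where both would be equal. The horizontal values run from -0.09 (Prelp) to 0.72 (Fmod) and the vertical values from -5.61 (Dpt) to 1.74 (Prelp).

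Across the 16 libraries, on log2(FPKM + 1), the 8 genes fell into overlapping patterns that did not follow their classes as a whole. Aspn of class I, Ogn of class III and Dpt correlated with each other at Pearson's r of 0.93 to 0.95. Lum of class II and Bgn of class I correlated at 0.95, and Prelp, of class II like Lum, with both at 0.75. Dpt correlated about as highly with Lum (0.72) and Bgn (0.76), so these patterns were not separate. Prelp and Ogn did not go together (-0.01), nor Fmod and Prelp (-0.44), which are both of class II. These are descriptions over 16 libraries of 8 fractions, which share their cells and library size.

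**Figure D5:**
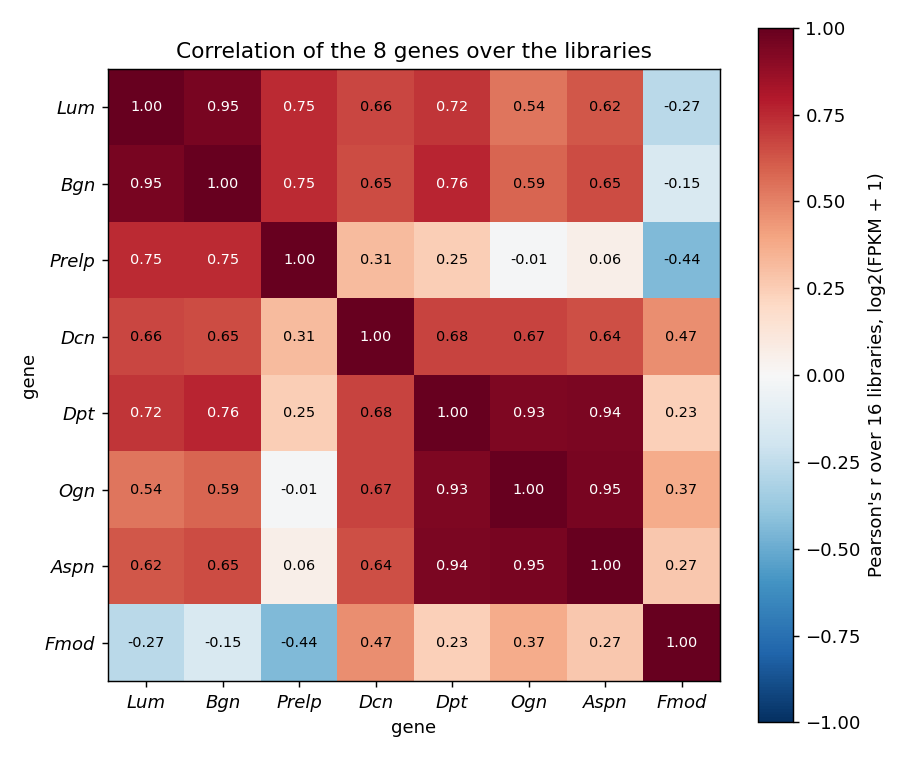
Pearson's r between each pair of the 8 genes over the 16 libraries on log2(FPKM + 1), red for positive and blue for negative values. Dpt, Ogn and Aspn form a block of 0.93 to 0.95, Lum and Bgn reach 0.95, and Fmod is at or below 0.47 with every other gene.

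Among 9046 other rows with a highest fraction mean of at least 10 FPKM, the row most like Dcn over the 16 libraries was Gpc3, a glypican (r = 0.98), then Atrnl1 (0.96) and Ghr, the growth hormone receptor (0.95). Lum was most like Pappa2 (0.99), Fat4 (0.98) and the transcription factor Tbx15 (0.98). Bgn was most like Adamts9, fibronectin (Fn1) and fibrillin (Fbn1), all at 0.97 to 0.98. Dpt was most like Svep1 (0.99), the crosslinking enzyme gene Lox (0.99) and the angiotensin receptor Agtr2 (0.98). Aspn was most like Tmem164 (0.98), Tmeff2 (0.97) and Agtr2 (0.96), and Ogn most like C1qtnf3, Lpl and Tmem164 (each 0.96). Prelp was most like Dip2a (0.99), Arap1 (0.98) and Tspan11 (0.97), and Fmod most like Mlec (0.96), Il1r1 (0.94) and Clu (0.94).

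Several of these genes are neighbours in the genome, and neighbours differed in pattern. On chromosome 10 Dcn is followed by Lum, Kera (keratocan) and Epyc (epiphycan). Dcn and Lum were both highest in Fb, but in Pc and Epi Dcn measured at least 124 FPKM and Lum at most 12.3. Kera, 34175 bases from Lum, measured 5.99 and 14.0 FPKM in Fb and at most 0.925 in the other 14 libraries (log2 difference Fb minus DC 2.90, SE 0.28, limma adjusted p = 1.95e-05). Epyc reached 0.166 FPKM in 1 Fb library and 0.0451 in 1 Pc library and was listed at 0 in the other 14.

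On chromosome 13 Ecm2, Aspn, Omd (osteomodulin) and Ogn lie inside a gene on the opposite strand, Cenpp, a centromere protein gene. The deposited table gives all 5 the same locus, 49464059 to 49652731, so the positions above for Aspn and Ogn are those of GENCODE M21. Exons of other genes cover 7 of the 2354 exonic bases of Aspn and none of Ogn. Cenpp itself measured 1.83 FPKM (DC replicate 1) to 25.3 (Fb replicate 2), and Aspn and Ogn were lowest and highest in the same libraries. Whether the counting used strand is not given in the sources used here, and the part of Cenpp fragments in these levels was not tested. Aspn and Ogn, 40480 bases apart, shared the high levels in Fb and Neg. Omd, which lies between them, measured 4.28 to 14.2 FPKM over the 16 libraries, with means of 9.13 ± 2.83 (SD, n = 2) in Fb and 9.19 ± 6.95 in DC (log2 difference 0.15, SE 0.52, limma adjusted p = 0.908). Ecm2 was higher in Fb (3.56 ± 2.07) than in DC (0.675 ± 0.557, log2 difference 1.41, SE 0.42, limma adjusted p = 0.0331) but was not separated from Neg (4.92 ± 2.39). The 2 libraries of a fraction differed alike in this locus, and not only there. Aspn was higher in replicate 2 in all 8 fractions, by a median of 0.58 log2 units, and Ogn in 7, by 0.51, against a median of 0 over all rows. Dcn and Lum on chromosome 10 were also higher in replicate 2 in 7 fractions, by 0.24 and 0.37, while Bgn was in 2 and Dpt in 4. Prelp and Fmod were lower in replicate 2 in all 8 fractions, by 0.42 and 0.36. Most rows had such medians between -0.87 and 0.71, a span that holds those of all these genes. The share of all rows that differ in the same direction in 7 or 8 fractions was not counted.

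The related genes were drawn from 7 lists. Of 12 other genes of the proteoglycan family, 7 were tested, and 2 were higher in Fb than in DC (Kera and Ecm2, the latter below 10 FPKM and named as a neighbour of Aspn) and none lower. Of 20 tested genes that build chondroitin and dermatan sulfate chains, 3 were higher in Fb and 1 lower, with a median log2 difference of 0.38. Over all rows 9.2% were higher and 6.13% lower, and 15.3% were called, near the share in this list. Among them was Dse, the epimerase that turns chondroitin into dermatan sulfate (26.4 ± 2.84 FPKM against 6.55 ± 1.37, log2 difference 1.86, SE 0.23, limma adjusted p = 0.000104). Of 7 keratan sulfate genes 1 was higher, B4galt1, a galactosyltransferase (50.7 ± 0.652 against 15.9 ± 3.16). Against Epi, 8 of the 20 chondroitin and dermatan sulfate genes were higher in Fb and 2 lower, where 14% and 10.5% of all rows were. None was called between Pc and Epi by limma, where 1.52% of all rows were.

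Collagens are the main partners of these proteoglycans. Of 13 tested fibril and beaded filament collagen genes, 5 were higher in Fb than in DC and none lower, where 9.2% of all rows were higher, with a median log2 difference of 0.67. Col12a1 had the largest difference (222 ± 22.3 FPKM against 24.7 ± 3.13, log2 difference 3.12, SE 0.19, limma adjusted p = 8.67e-07), followed by Col1a1 (1503 ± 1189 against 176 ± 102, 2.95), Col1a2 (1695 ± 378 against 276 ± 82.9, 2.63) and Col3a1 (2620.0 ± 150 against 1029 ± 98.6, 1.35). Against Neg, 11 of the 13 were higher in Fb, where 7.71% of all rows were. Against Sch, 9 were, where 8.68% of all rows were.

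The lists of TGF-beta genes, of proteases that cleave these proteoglycans and of other proteoglycans each held 1 gene lower in Fb than in DC, where 6.13% of all rows were lower and 9.2% higher. Of 11 TGF-beta ligand, receptor and latency genes 4 were higher in Fb, among them the matrix protein gene Tgfbi (23.0 ± 1.48 FPKM against 0.599 ± 0.275) and the ligands Tgfb2 (11.1 ± 3.93 against 1.29 ± 0.443) and Tgfb3 (11.4 ± 1.80 against 2.66 ± 1.02). Ltbp1, which holds TGF-beta latent in the matrix, was lower (34.1 ± 6.89 against 119 ± 12.2, log2 difference -1.79, SE 0.24, limma adjusted p = 0.000177). Of 9 tested proteases and their enhancers 3 were higher in Fb, including Pcolce, which enhances procollagen processing (153 ± 86.2 against 16.0 ± 6.501), and Adamts1 (37.2 ± 3.52 against 5.38 ± 1.03), and Adamts4 was lower (5.32 ± 1.81 against 53.5 ± 16.0, log2 difference -3.11, SE 0.32, limma adjusted p = 3.19e-05). Of 9 other matrix proteoglycans 1 was higher in Fb and 1 lower, Spock1 (0.0610 ± 0.00702 against 11.4 ± 0.502).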

How the data were processed

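RNA from 16 libraries of 8 sorted fractions of mouse embryonic skin was amplified and sequenced, per the labels' protocols. The authors deposited 1 table of FPKM values for 23235 rows, and TopHat2 2.0.3, Bowtie2, Cufflinks 2.1.1 and the mm10 build are named in the submitters' processing notes. The low FPKM values showed no common step, so depth is unknown and no counting interval is given. The values were used as deposited. With limma 3.58.1 (R 4.3.3), log2(FPKM + 1) of the 14171 rows that reached 1 FPKM in 2 or more libraries was fitted with 1 mean per fraction over all 16 libraries and a trended, robust spread, and p-values were adjusted by Benjamini and Hochberg over all rows tested in each comparison. A row was called at an adjusted p under 0.05 and a log2 difference of at least 1. Log2 differences understate the change of low genes.

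The 8 genes, the lists and the tests were chosen with earlier results of these data known. All 8 genes are named, and of each pathway list up to 4 called genes, those of largest difference that reached 10 FPKM in the fraction where they were higher. For likeness, the 3 rows with the highest Pearson correlation over the 16 libraries are named. Other markers and genomic neighbours were named after their values were seen. Libraries with the same replicate number deviated together in all 28 pairs of fractions (correlation of deviations 0.148 to 0.656), so the value with the replicate number in the model is printed where it changed a call. The fit was tested on simulated data. Alternatives covered the pseudocount (0.1 and 5), the filter, rescaling, quantile normalization, the replicate number, the spread, the libraries fitted and leaving out each library.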

Additional observations from a re-analysis of the deposited data

Results flagged for a closer look

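Whether the follicle against non-follicle difference was the same in the dermal and epithelial fractions was tested by limma on the difference itself. It was called below 0 for 7 of the 8 genes, where 8.19% of all rows were, but not all of these calls are informative. The value of (DC minus Fb) minus (Pc minus Epi) on the log2 scale was -3.41 for Dcn, -2.21 for Lum, -2.13 for Bgn, -3.25 for Fmod, -4.82 for Ogn, -4.63 for Aspn and -5.55 for Dpt. The dermal term made up most of each value, with DC minus Fb at -1.63 (Bgn) to -5.61 (Dpt) and Pc minus Epi at -0.06 (Dpt) to 0.72 (Fmod) for these genes. In Aspn, Ogn and Dpt the Epi means of 1.32, 2.44 and 2.83 FPKM left no room for an equal fall in Pc, so their values below 0 were set in part by this floor.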

How the results depend on the processing

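Of 644 values of single genes under settings that kept every library, 630 kept their direction and their side of the threshold. The log2 difference of Dpt between Pc and Epi turned from -0.06 to 0.027 with the libraries rescaled to the same total and to 0.022 with quantile normalization. The count of genes called between DCSch and DC fell from 1 to 0 with only the libraries compared and with a pseudocount of 0.1, as Prelp lost its call. Among the results described, the replicate block (the paired fit with the replicate number) added calls for Prelp between Fb and Sch (1.02), for Aspn between DC and Sch (-1.06) and for Prelp in the difference between the dermal and epithelial pairs (1.83), and changed no other call of the designed comparisons. Prelp in that difference was also called with rescaling (1.81), quantile normalization (1.77) and a pseudocount of 5 (1.34).

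With 1 library left out, 287 of 320 values of single genes kept their direction and side, 14 lost the call, 5 gained it and 14 turned, with the lone library assumed to vary like the others. The counts of called genes ranged from 7 to 8 for Fb against DC, 6 to 7 for Fb against Neg, 0 to 1 for DCSch against DC and for Mc against Sch, 4 to 5 for DC against Sch, 6 to 8 for the dermal and epithelial difference, and 126 to 136 over all pairs of fractions.
The log2 differences that turned were all without a call with every library. Between Pc and Epi, leaving out 1 library gave -0.076 to 0.45 for Aspn, -0.32 to 0.36 for Lum, -0.089 to 0.62 for Ogn, -0.19 to 0.018 for Prelp and -0.26 to 0.14 for Dpt. Between Mc and Sch it gave -0.63 to 0.16 for Aspn, -0.074 to 0.73 for Dpt and -1.04 to 0.32 for Fmod. Between DCSch and DC it gave -0.075 to 0.41 for Bgn and -0.080 to 0.57 for Ogn, and between DC and Sch -1.18 to 0.18 for Fmod and -0.49 to 0.16 for Ogn. With 2 libraries a fraction and unknown depth, a p that misses the threshold does not show that fractions were alike.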
